A study of Oryza sativa with 7 samples.

Results

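Cytochrome P450 genes encode heme-containing monooxygenases, which insert 1 atom of oxygen into small molecules. The genes described here are the 246 rice genes whose deposited description contains "cytochrome P450", in any of the 4 tables of mir156 mutants against the wild type, of 26168 genes listed in any table. The descriptions gave 256 such genes, and a fixed list of 10 was left out by identifier, among them KAO, KO2 and EUI1 of the gibberellin pathway. Genes of further hormone steps may remain among the 246. No expression value was used to choose them.

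The messenger RNA came from the wild type and from CRISPR/Cas9 mutants of MIR156 genes, all in Nipponbare, a japonica cultivar, sown in a paddy field in Hangzhou. The unelongated culm, the short stem base of a seedling, was taken from 20-day-old plants of the wild type, of mir156abckl (5 mutated MIR156 genes) and of mir156defghi (6 mutated genes). Shoots of 2-week-old seedlings and embryos of fresh seeds, taken just after seed filling, came from the wild type and from mir156abcdfghikl, with 10 mutated genes. For its dormancy assays of fresh seeds, the paper planted this mutant earlier than the wild type to match flowering dates. Whether the embryos came from such plants is not given, and if so, planting date and genotype cannot be told apart there. Each genotype had 3 biological repeats, but the deposited tables hold 1 value per genotype, and the labels give 1 code per mutant group, without saying whether it marks a line. The codes of the mir156abcdfghikl embryos and shoots differ, so that a difference between these tissues and one between codes cannot be told apart. Seedlings of mir156abcdfghikl grow far more slowly than the wild type, so that equal age and equal stage cannot be told apart in the shoot comparison. The paper also gives seedlings of mir156defghi a younger leaf stage than those of mir156abckl at equal age. Genotype and stage therefore cannot be told apart between the culm groups either.

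miR156 is a small RNA that represses SPL transcription factor genes, among them IPA1, and keeps plants juvenile. P450 enzymes work downstream of many pathways. They build sterols, cell wall phenolics, wax and suberin precursors, carotenoids and hormones, and in grasses a large share of them serves defence metabolism. Rice carries gene clusters in which P450 genes lie beside diterpene synthase genes, and such clusters make diterpenoid phytoalexins, antimicrobial compounds that accumulate after attack. The files name few of these genes beyond their family number, so most are given below by locus identifier only, with positions on TIGR release 7.

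Values are FPKM, fragments scaled to transcript length and to the mapped fragments of the library, computed by the authors over all repeats of a genotype. The files used here hold no value per repeat, the read depth is unknown, and the authors' p-values were not used. No SD, interval or test therefore accompanies any difference below, and none was set against the spread between repeats. A change is given as the log2 of (mutant + 1) over (wild type + 1), which understates the change of weakly expressed genes. Genes with at least 1 FPKM in either genotype were compared, and "lower" or "higher" below means at least 2-fold on this scale. The 4 tables were normalized separately, and both culm comparisons used the same wild-type culms, so they are not independent.

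IPA1 checked the labels. Its FPKM was 14.2 in wild-type and 20.8 in mir156abckl culms, 14.1 and 68.2 in the mir156defghi table, 8.69 and 86.9 in embryos, and 1.07 and 33.8 in shoots. It was higher in each mutant, within 2-fold in mir156abckl culms only. Oleosin genes summed to 34635 FPKM in wild-type and 28563 in mutant embryos, and to at most 8.06 in any culm or shoot group. Storage protein genes (glutelin or prolamin), which mark endosperm, summed to 67896 FPKM in wild-type and 52840 in mutant embryos, so the embryo samples also carried these transcripts. Genes for chlorophyll A-B binding proteins, which mark green tissue, summed to 50102 FPKM in wild-type shoots and 8390 in mutant shoots, with 16 of 17 lower, and genes for the small chain of ribulose bisphosphate carboxylase to 22294 and 744 FPKM. Oleosin and green-tissue transcripts were thus highest in the tissues whose labels they mark. In embryos the chlorophyll A-B binding genes summed to 96.7 and 259 FPKM, and 13 of the 15 compared were higher in the mutant. In culms they summed to 634 FPKM in the wild type, 939 in mir156abckl and 1153 in mir156defghi. In bulk tissue, fewer cells of a type and less RNA per cell cannot be told apart.

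In each comparison more P450 genes were lower in the mutant than higher. In shoots of mir156abcdfghikl, 78 of 171 P450 genes (45.6%) were lower and 16 (9.36%) higher, where 19.7% of all 22057 genes were lower and 22.6% higher. In mir156abckl culms, 39 of 185 (21.1%) were lower and 5 (2.70%) higher, beside 4.76% and 3.36% of all 22295 genes. In mir156defghi culms, 30 of 190 (15.8%) were lower and 7 (3.68%) higher, beside 3.63% and 2.8% of 22237 genes. In embryos, 8 of 106 (7.55%) were lower and 4 (3.77%) higher, beside 1.6% and 2.14% of 19741 genes. The lower share of P450 genes exceeded that of all genes in each comparison, and the higher share fell under that of all genes in shoots and mir156abckl culms. For the higher share this held under 5 FPKM and from 5 to 20 FPKM (mean of both genotypes). At 20 FPKM or more it did not, with 22.0% beside 21.5% in shoots (9 of 41 P450 genes) and 3.85% beside 1.54% in mir156abckl culms (1 of 26).

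**Figure D1:**
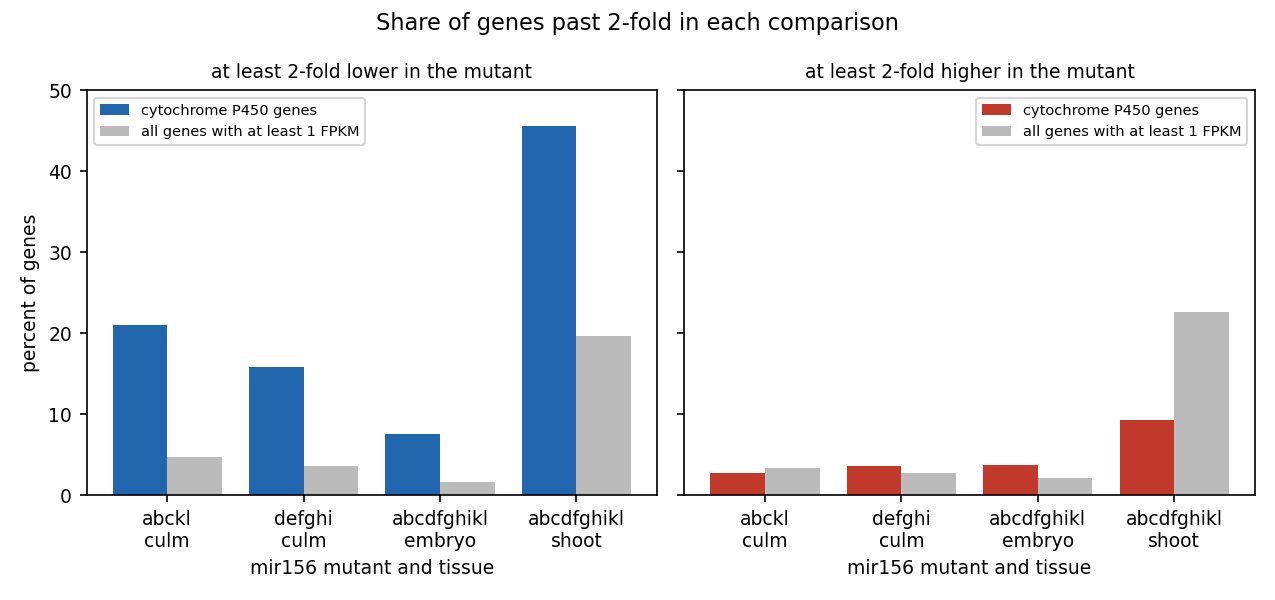
Percent of genes (vertical axis) at least 2-fold lower (left) or higher (right) in each mutant and tissue (horizontal axis), for cytochrome P450 genes (coloured bars) and for all genes with at least 1 FPKM in either genotype (grey bars). The tallest bar is the 45.6% of P450 genes that were lower in mir156abcdfghikl shoots, beside 19.7% of all genes.

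The median log2 ratio of the P450 genes was -0.87 in shoots, where that of all genes was 0.13. Relative to that shift, 49.7% of the P450 genes and 22.3% of all genes were lower in shoots. The medians were -0.36 in mir156abckl culms and -0.37 in mir156defghi culms, with -0.02 for all genes in both tables, and -0.14 in embryos, with 0.02 for all genes. In shoots, 74.9% of the P450 genes had a ratio below 0, against 45.6% of all genes. The larger share of lower P450 genes held at each level of expression in shoots, with 38.7% of those under 5 FPKM (mean of both genotypes), 49.1% of those between 5 and 20 FPKM and 53.7% of those at 20 FPKM or more. The shares of all genes in the same bands were 17.3%, 16.2% and 26.02%.

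**Figure D2:**
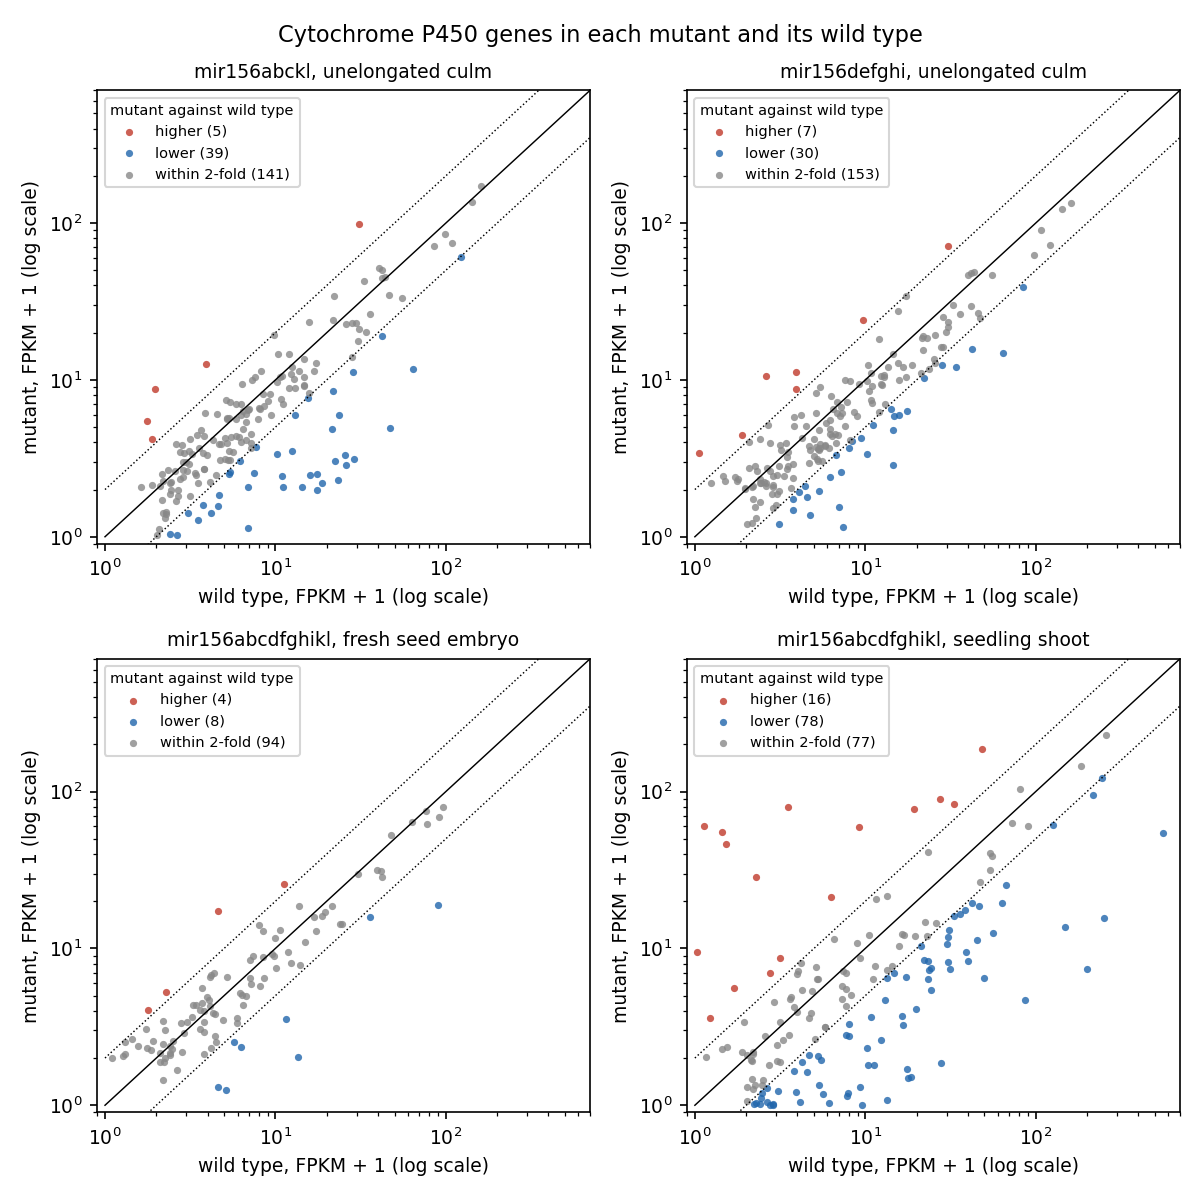
FPKM + 1 of each cytochrome P450 gene in the wild type (horizontal, log scale) and the mutant (vertical, log scale), 1 panel per comparison. Each point is a gene with at least 1 FPKM in either genotype, solid lines mark equality and dotted lines 2-fold. In the shoot panel 78 points lie below the lower dotted line and 16 above the upper one.

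The summed P450 level in shoots was 4468 FPKM for wild-type and 2577 FPKM for mutant plants, which was 0.549% and 0.427% of the FPKM of all genes. In culms it was 2504 FPKM for the wild type and 1875 FPKM for mir156abckl (0.362% and 0.294%), and 2492 and 1874 FPKM in the mir156defghi table (0.363% and 0.297%). In embryos it was 1216 FPKM for wild-type and 1005 FPKM for mutant seeds, and the share of all FPKM was nearly level, at 0.149% and 0.144%. Of the 246 genes, 94 were listed in all 4 tables, 19 in the embryo table only and 21 in the shoot table only. Of the 232 compared at least once, 138 (59.5%) were past 2-fold in at least 1 comparison, beside 43.0% of all genes.

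In the wild type, few P450 genes made up much of this level. The 5 highest gave 34.2% of the P450 level in shoots, 35.0% in embryos and 25.1% in culms. LOC_Os05g25640 was among the 5 highest in every tissue, with 160.4 FPKM in culms, 75.8 in embryos and 244 in shoots. Its mutant value was 170.3 in mir156abckl culms, 133 in mir156defghi culms, 73.9 in embryos and 120.4 in shoots. It was therefore nearly level in embryos and about at the 2-fold limit in shoots (log2 -1.01). LOC_Os05g41440 stayed within 2-fold everywhere, with 142 FPKM in wild-type culms and 79.9 FPKM in wild-type against 103 in mutant shoots.

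The highest P450 gene of any group was LOC_Os06g01250 (chromosome 6, 163204 to 165539). It had 556 FPKM in wild-type and 53.3 in mutant shoots (log2 -3.36), while its embryo values were 89.6 and 67.8 FPKM and its culm values 8.25 and 7.13 FPKM. The fall was thus seen in the shoot comparison, where the gene had been most abundant. LOC_Os11g18570, the second highest in wild-type shoots, differed little there, with 259 FPKM in wild-type and 228 in mutant shoots. LOC_Os04g01140, described as a family 93 P450, had 217 FPKM in wild-type and 94.3 in mutant shoots and 41.1 and 49.5 FPKM in wild-type and mir156abckl culms.

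The P450 genes beside terpene synthase genes were lower in mir156abckl culms and in shoots. Terpene synthases make the carbon skeletons that P450 enzymes then oxidise. Of the 11 P450 genes within 100 kb of a gene described as terpene or ent-kaurene synthase, 10 were lower in mutant shoots, and 8 of the 10 compared were lower in mir156abckl culms, with medians of -2.56 and -2.75. In mir156defghi culms 3 of 10 were lower, with a median of -0.80. Of the P450 genes elsewhere, 68 of 160 were lower in shoots (42.5%), 31 of 175 in mir156abckl culms (17.7%) and 27 of 180 in mir156defghi culms (15%). None of the 11 was listed in the embryo table, which listed 129 of the 246 genes.

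The largest such stretch spans 244 kb of chromosome 2 (21662607 to 21906350) and holds 6 P450 genes, LOC_Os02g36030, LOC_Os02g36070, LOC_Os02g36110, LOC_Os02g36150, LOC_Os02g36190 and LOC_Os02g36280, all but the first within 100 kb of a synthase gene. LOC_Os02g36190 (chromosome 2, 21810333 to 21813460) had 46.3 FPKM in wild-type culms, 3.93 in mir156abckl and 23.7 in mir156defghi, and 12.4 FPKM in wild-type and 0.0758 in mutant shoots. The level in mir156abckl was thus well under that in mir156defghi, and the shoot transcript was almost absent from the mutant. LOC_Os02g36070 had 24.8, 1.86 and 11.9 FPKM in wild-type, mir156abckl and mir156defghi culms, and 5.1 and 0.0325 FPKM in wild-type and mutant shoots. LOC_Os02g36110 had 16.6, 1.499 and 5.38 FPKM in the same 3 culm groups, and 6.799 and 0.146 FPKM in shoots. LOC_Os02g36030 had 13.3, 1.06 and 5.51 FPKM in culms, and 3.12 and 0.0499 FPKM in shoots. These 4 genes shared one order in culms, with the wild type highest and mir156abckl lowest. LOC_Os02g36280 had the same order, with 14.9, 1.48 and 8.97 FPKM in culms and 6.92 and 0.206 FPKM in shoots. LOC_Os02g36150 was the weakest in culms, with 2.51, 1.19 and 2.23 FPKM, and did not reach 2-fold there, while its shoot values were 7.005 and 1.74 FPKM.

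The other 4 listed genes between the first and the last of these P450 genes are all described as terpene or ent-kaurene synthases. LOC_Os02g36210, described as an ent-kaurene synthase, had 64.3 FPKM in wild-type, 3.27 in mir156abckl and 32.9 in mir156defghi culms, and 16.2 FPKM in wild-type and 0.368 in mutant shoots. LOC_Os02g36140, described as a terpene synthase, had 44.8, 3.71 and 27.4 FPKM in the 3 culm groups and 13.1 and 0.0407 FPKM in shoots. Both had the order of levels seen in the P450 genes around them. LOC_Os02g36264 did not, with 3.41, 0.225 and 3.66 FPKM in culms, and had 2.55 and 0.633 FPKM in shoots, while LOC_Os02g36220 was listed in shoots only, with 0.883 and 0.733 FPKM. Reads shared by similar neighbours could be assigned to either, so the value of a single gene of the stretch is less certain than that of the stretch as a whole.

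A stretch of 154 kb on chromosome 4 (5332328 to 5486773) held LOC_Os04g09920 and LOC_Os04g10160. LOC_Os04g09920 had 63.4 FPKM in wild-type, 10.7 in mir156abckl and 13.9 in mir156defghi culms, lower in both mutants by a similar amount (log2 -2.46 and -2.11). LOC_Os04g10160 had 21.2, 2.04 and 9.33 FPKM in these groups (log2 -2.87 and -1.10). In shoots both were weak in the wild type, at 1.28 and 1.87 FPKM, and the mutant values were 0.0321 and 0.0233 FPKM. LOC_Os04g09900, a neighbouring gene described as an ent-kaurene synthase, had 78.4, 8.11 and 25.9 FPKM in culms and 10.3 and 0.0883 FPKM in shoots. LOC_Os04g10060, with the same description, had 12.8, 1.28 and 8.65 FPKM in culms and 0.682 and 0.0173 FPKM in shoots.

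On chromosome 7 (6494464 to 6577460), LOC_Os07g11739 had 22.1 FPKM in wild-type, 1.29 in mir156abckl and 17.4 in mir156defghi culms, and 17.6 FPKM in wild-type and 0.513 in mutant shoots. Its log2 ratio of -3.34 in mir156abckl was the lowest of all 185 P450 genes compared there, and that in mir156defghi was -0.32. LOC_Os07g11870 had 5.89, 0.133 and 5.16 FPKM in culms and 8.58 and 0.00805 FPKM in shoots. At this locus the mir156defghi values lay close to the wild type. The terpene synthase gene between them, LOC_Os07g11790, had 2.04, 0.00635 and 1.33 FPKM in culms, and 8.41 FPKM in wild-type shoots, where the mutant was listed at 0. The other listed gene between them was not lower. Its log2 ratio was 0.03 in mir156abckl culms, 0.29 in mir156defghi culms and 0.79 in shoots. Among the remaining P450 genes near such a synthase, LOC_Os02g17760 stayed within 2-fold throughout, with 2.57 and 1.81 FPKM in shoots, and LOC_Os04g27020 was listed in shoots only, with 1.44 and 0.116 FPKM. Its neighbouring terpene synthase genes did not follow it. LOC_Os04g27190 had 14.9 and 39.7 FPKM in shoots, higher in the mutant, and 152, 88.95 and 73.6 FPKM in the 3 culm groups, and LOC_Os04g26960, listed in culms only, had 1.03 FPKM for wild-type and 3.49 for mir156abckl plants and was listed at 0 in mir156defghi. Beside LOC_Os02g17760 lies LOC_Os02g17780, described as an ent-kaurene synthase, which the paper names CPS1 and lists as a key gibberellin biosynthetic gene. LOC_Os02g17780 had 8.11 and 1.39 FPKM in wild-type and mutant shoots, and 10.4 and 10.1 FPKM in wild-type and mir156abckl culms.

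**Figure D3:**
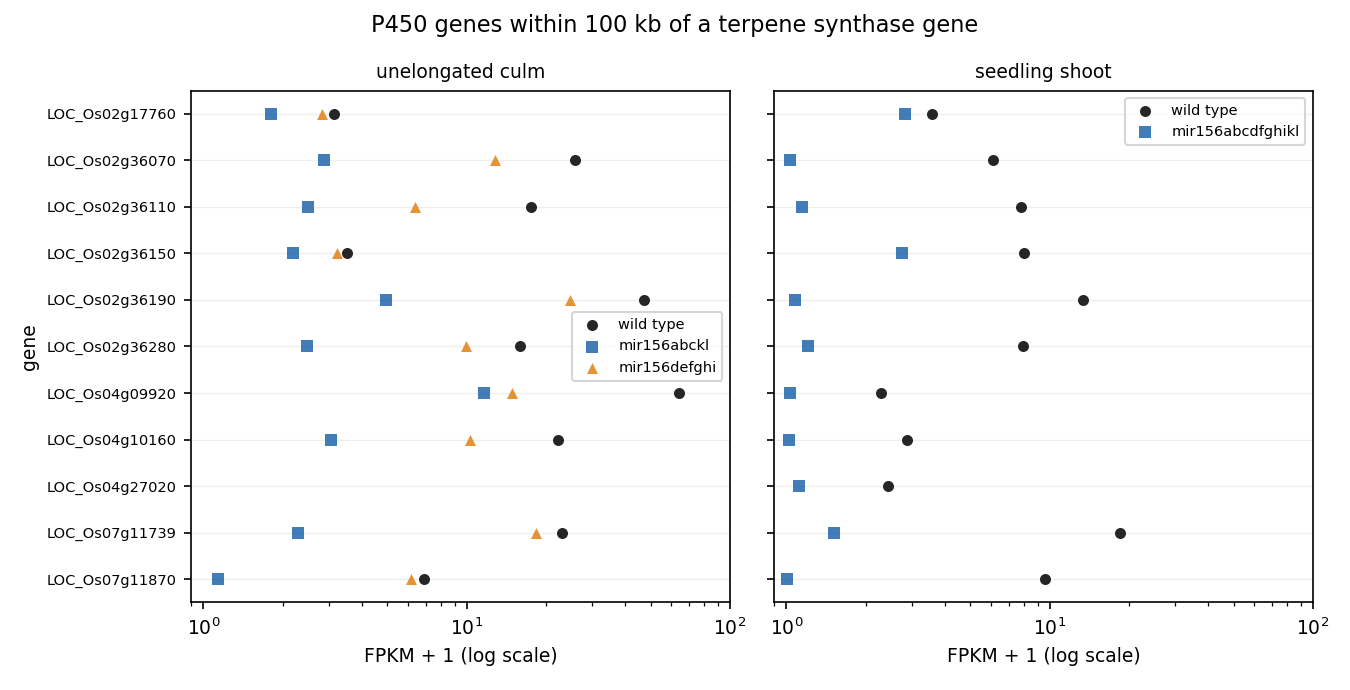
FPKM + 1 (horizontal, log scale) of the 11 P450 genes within 100 kb of a terpene synthase gene (rows), in culms (left) and shoots (right), 1 point per genotype over its repeats. In culms the mir156abckl point lies left of the wild type in all 10 rows with values, and mir156defghi lies between them. In shoots 10 of 11 mutant points are at least 2-fold lower.

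A stretch of 75.1 kb on chromosome 6 (21982653 to 22057757) held 3 further P450 genes, and all 3 were lower in mir156abckl culms. LOC_Os06g37300 had 17.8 FPKM in wild-type, 1.21 in mir156abckl and 11.4 in mir156defghi culms, and 16.5 FPKM in wild-type and 0.715 in mutant shoots. LOC_Os06g37224 had 3.596, 0.570 and 0.790 FPKM in the 3 culm groups, and LOC_Os06g37330 had 3.67, 0.838 and 2.76 FPKM. Other P450 genes among the 5 with the lowest ratios in mir156abckl culms lay outside arrays. LOC_Os03g37290 (chromosome 3, 20666008 to 20670823) had 27.9 FPKM in wild-type, 2.15 in mir156abckl and 15.2 in mir156defghi culms, but 0.230 and 2.59 FPKM in wild-type and mutant shoots, where it was higher in the mutant. LOC_Os10g30390 (chromosome 10, 15796177 to 15799887) had 16.4, 0.980 and 9.45 FPKM in the 3 culm groups and 1.23 and 0.0121 FPKM in shoots.

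In mir156defghi culms, 3 of the 5 lowest ratios at 10 FPKM or more belonged to genes away from the terpene synthases. LOC_Os01g72740 (chromosome 1, 42206303 to 42208513) had 13.6 FPKM in wild-type and 1.85 in mir156defghi culms (log2 -2.35), beside 8.2 in mir156abckl. LOC_Os06g30500 had 13.6, 3.795 and 8.27 FPKM in the wild type, mir156defghi and mir156abckl. LOC_Os01g43844, described as a family 72 P450, had 32.98, 11.1 and 19.2 FPKM in the same order. For these 3 genes mir156defghi had the lowest level, the reverse of the terpene-linked genes. Of the 246 genes, LOC_Os01g72270 was lower in mir156abckl (1.64 and 0.0304 FPKM) and higher in mir156defghi (1.63 and 9.62 FPKM).

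Few P450 genes were higher in culms. LOC_Os02g12890 (chromosome 2, 6802605 to 6805335) had 29.9 FPKM in wild-type, 97.8 in mir156abckl and 70.3 in mir156defghi culms, while wild-type shoots had 24.8 FPKM and mutant shoots 13.5. LOC_Os04g33370 had 2.91, 11.5 and 10.2 FPKM in the 3 culm groups and 8.17 FPKM in wild-type and 58.5 in mutant shoots, higher in these 3 comparisons. LOC_Os06g46680 was the other gene higher in all 3, with 0.888, 3.22 and 3.48 FPKM in culms. LOC_Os08g43390 had 8.72 FPKM in wild-type and 23.2 in mir156defghi culms, but 18.8 and 3.1 FPKM in wild-type and mutant shoots. These 2 tissues therefore gave opposite directions for LOC_Os08g43390, in different mutants.

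In shoots of mir156abcdfghikl the fallen genes included some of the most abundant. LOC_Os11g41710 (chromosome 11, 25040875 to 25042999) had 198 FPKM in wild-type and 6.43 in mutant shoots (log2 -4.75), the lowest ratio of the 171 genes, and was not listed in the other tables. LOC_Os10g17260 had 252 FPKM in wild-type and 14.6 in mutant shoots, beside 2.16 FPKM in wild-type culms. LOC_Os02g02000 was listed in shoots only, with 85.9 FPKM in wild-type and 3.68 in mutant shoots, and LOC_Os11g29720 had 26.98 FPKM in wild-type and 0.856 in mutant shoots, beside 20.99 and 33.04 FPKM in wild-type and mir156abckl culms. Of these genes, LOC_Os11g29720 alone was above 10 FPKM in wild-type culms. LOC_Os02g36190, given above and also among the 5 lowest ratios in shoots, had 46.3 FPKM in wild-type culms. Genes for green-tissue proteins fell in the same shoot samples, as given above, and their part in this result was not tested.

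Some of the 16 P450 genes higher in mutant shoots were already abundant in wild-type embryos, while others were weaker or not listed there. LOC_Os03g45619, with 47.6 FPKM in wild-type and 187 in mutant shoots, was not listed in embryos. LOC_Os06g46680 had 2.502 FPKM in wild-type and 78.2 in mutant shoots, and 62.7 FPKM in wild-type and 62.9 in mutant embryos. LOC_Os04g47250 had 0.521 FPKM in wild-type and 45.4 in mutant shoots, and 40.9 and 30.3 FPKM in embryos. LOC_Os02g44654, less abundant in embryos, had 0.447 and 54.6 FPKM in shoots, and 9.69 and 12.1 FPKM in embryos. For these 3 genes the mutant shoots reached or passed the embryo level, whereas the embryo levels of the genotypes were within 2-fold. LOC_Os02g30080 had 1.29 and 27.7 FPKM in shoots and 5.196 and 4.196 FPKM in embryos. LOC_Os03g04530 (chromosome 3, 2115173 to 2117105) had the highest ratio, with 0.124 FPKM in wild-type and 59.4 in mutant shoots, and was listed in shoots only. The embryo and shoot tables were scaled separately, so that levels are comparable within each but only roughly between them.

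**Figure D4:**
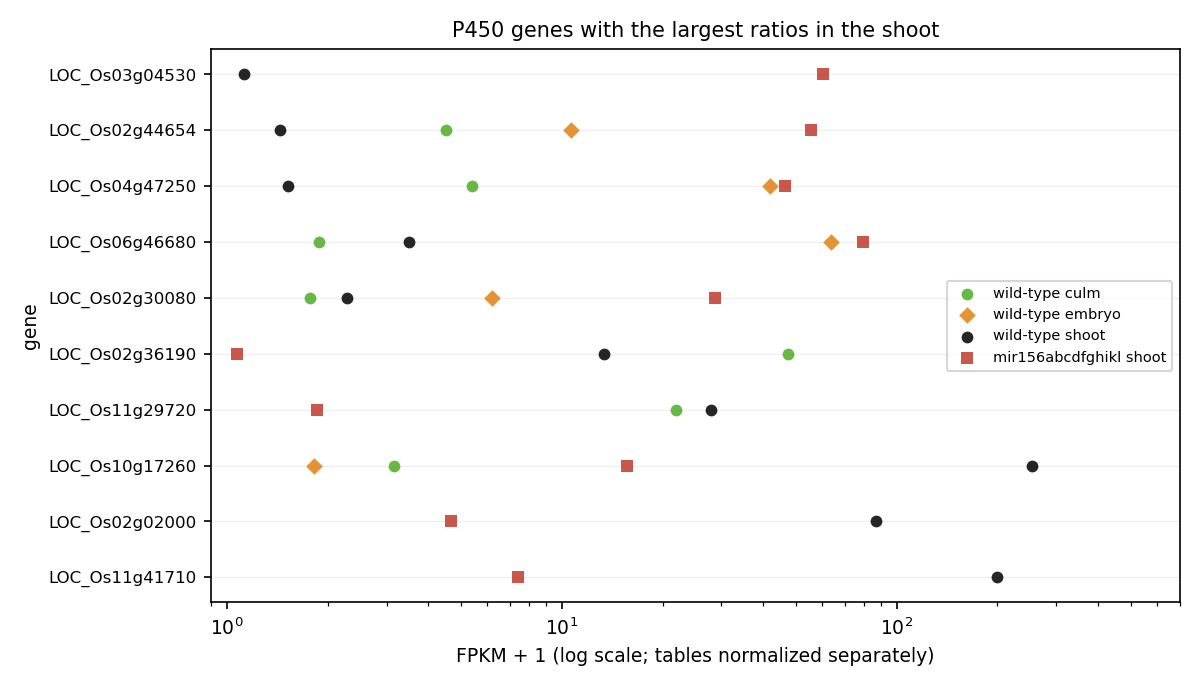
FPKM + 1 (horizontal, log scale) of the 5 P450 genes with the highest and the 5 with the lowest log2 ratios in shoots (rows), for wild-type culms, wild-type embryos, wild-type shoots and mir156abcdfghikl shoots. Mutant shoots lie far right of wild-type shoots in the upper 5 rows, and near the wild-type embryos for LOC_Os04g47250 and LOC_Os06g46680. The lower 5 rows show the reverse within the shoot. Tables were normalized separately.

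Embryos had the fewest P450 genes past 2-fold. LOC_Os03g04190 had the largest fall in FPKM, with 88.7 FPKM in wild-type and 17.9 in mutant embryos (log2 -2.25). The same gene had 83.7 FPKM in wild-type culms, 70.9 in mir156abckl and 38.1 in mir156defghi, and 4.36 and 0.342 FPKM in wild-type and mutant shoots, so it was lower in 3 comparisons. LOC_Os09g35940 had 12.5 FPKM in wild-type and 1.03 in mutant embryos and 16.7 FPKM in wild-type and 0.486 in mutant shoots, beside 1.43, 0.982 and 1.35 FPKM in wild-type, mir156abckl and mir156defghi culms. LOC_Os12g32850 had 10.5 and 2.56 FPKM in wild-type and mutant embryos, and LOC_Os02g09320, listed in embryos only, had 35.03 and 14.9 FPKM. LOC_Os06g43370 was lower in both tissues of mir156abcdfghikl, with 4.73 and 1.54 FPKM in embryos and 1.64 and 0.281 FPKM in shoots.

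In all, 3 genes were lower in embryos and in shoots, which are 37.5% of the 8 lower in embryos and 3.85% of the 78 lower in shoots. Of those 8 genes, 4 were not listed in shoots, and 3 of the 4 compared in both tissues (75%) were lower there. Of the 85 P450 genes compared in both tissues, 42.4% were lower in shoots. Over all genes compared in both, the same shares were 31.4% and 15.4%. LOC_Os03g25490, described as a family 72 P450 and listed in embryos only, was the strongest rise in embryos, with 3.62 FPKM in wild-type and 16.2 in mutant embryos. LOC_Os06g03930, described as a family 86 P450, had 10.3 and 24.8 FPKM there. In the same mutant embryos the chlorophyll A-B binding transcripts had a higher sum, as given above, that of the carboxylase small chain was 624 FPKM in wild-type and 473 in mutant embryos, and that of the storage proteins was smaller. The part of these in the result was not tested. LOC_Os02g09400 went in opposite directions in embryos and shoots, whose mutant groups carry different codes.

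By the family numbers in the descriptions, 195 of the 246 genes had none. The family counts below therefore cover only genes whose description gives a number, and genes without one may belong to the same families. Family 72, a large plant family with roles in specialised metabolism and in hormone inactivation, had 26 genes. Of its 21 compared in shoots, 11 (52.4%) were lower and 0 higher (median -1.06), beside 19.7% of all genes and 45.6% of all P450 genes lower. Of these 11, 6 lie in the chromosome 1 array of family 72 genes given below. In culms 3 of 22 (13.6%) were lower in each mutant, beside 4.76% and 3.63% of all genes and 21.1% and 15.8% of all P450 genes. Family 71, whose members in plants act largely in specialised metabolism, had 14 genes. In shoots 3 of the 7 compared (42.9%) were lower, near the 45.6% of all P450 genes. The family 51 genes, named after sterol 14-demethylase, were more mixed. LOC_Os11g32240 had 32.3 FPKM in wild-type and 82.3 in mutant shoots, the highest embryo level of all P450 genes (94.7 and 78.3 FPKM), and 39.5 and 50.8 FPKM in wild-type and mir156abckl culms. LOC_Os02g21810, of the same family, was lower in shoots, with 7.08 and 2.31 FPKM, and LOC_Os05g34325 had 4.22, 4.71 and 2.13 FPKM in the 3 culm groups.

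Family 86 holds fatty acid omega-hydroxylases, which serve cutin and suberin synthesis. LOC_Os03g04660 was higher in mutant shoots (26.4 and 89 FPKM) and level in embryos (29.5 and 29.01 FPKM). LOC_Os06g03930, higher in mutant embryos, had 52.6 and 30.6 FPKM in shoots and 107, 73.3 and 89.4 FPKM in culms. LOC_Os05g31740 was lower in shoots, with 3.54 and 0.636 FPKM. The 3 genes described with this family number therefore did not share a direction. LOC_Os10g39930, the only gene described as family 97 (the family of carotene hydroxylases of the chloroplast), had 32.3 FPKM in wild-type and 15.03 in mutant shoots. It stayed within 2-fold in the other tables. LOC_Os06g24180, the only gene described as family 84 (the family of ferulate 5-hydroxylase, a lignin enzyme), was weak in culms, with 1.88, 1.404 and 0.521 FPKM.

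P450 genes lie close together in the rice genome. By position, 96 of the 246 formed 21 arrays of at least 3 genes with neighbours within 100 kb of each other. In shoots, 36 of 67 array genes (53.7%) and 42 of 104 others (40.4%) were lower. In mir156abckl culms the counts were 15 of 66 (22.7%) and 24 of 119 (20.2%). In mir156defghi culms they were 11 of 66 (16.7%) and 19 of 124 (15.3%), and in embryos 5 of 40 (12.5%) and 3 of 66 (4.55%). The share was larger in arrays in each comparison, and the culm shares were close.

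An array of 9 family 72 genes on chromosome 1 (25040213 to 25121927) had 6 of 8 genes lower in shoots, with ratios from -2.27 to -0.89. LOC_Os01g43710 had 38.2 and 8.48 FPKM in wild-type and mutant shoots, LOC_Os01g43760 9.84 and 2.65 FPKM, and LOC_Os01g43750 4.67 and 0.174 FPKM. LOC_Os01g43700 and LOC_Os01g43844 were abundant but did not pass 2-fold, with 12.4 and 6.26, and 13.4 and 6.73 FPKM. The weakly expressed LOC_Os01g43740, LOC_Os01g43774 and LOC_Os01g43851 had 1.75, 1.88 and 1.49 FPKM in wild-type shoots, and LOC_Os01g43774 was listed at 0 in the mutant. LOC_Os01g43720 was listed in culms only. Every gene of the array compared in shoots had the smaller value in the mutant.

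An array of 8 genes on chromosome 6 (26022266 to 26164597) had 5 of 6 genes lower in shoots. LOC_Os06g43304 fell from 62.8 to 18.4 FPKM and LOC_Os06g43430 from 12.5 to 5.43 FPKM. LOC_Os06g43320 and LOC_Os06g43350 had 2.93 and 4.26 FPKM in the wild type and 0.208 and 1.07 FPKM in the mutant. The exception, LOC_Os06g43510, described as a family 71 P450, had 2.05 and 0.904 FPKM. LOC_Os06g43384 and LOC_Os06g43520 were not listed in shoots. On chromosome 1 (7048272 to 7073789), the 3 compared genes of another array were all lower in shoots, among them LOC_Os01g12740 with 23.1 and 4.47 FPKM and LOC_Os01g12750 with 21.2 and 7.45 FPKM. The latter was higher, within 2-fold, in mir156abckl culms (2.84 and 5.16 FPKM). LOC_Os01g12770 had 8.36 and 0.315 FPKM in shoots, and LOC_Os01g12760 stayed under 1 FPKM.

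On chromosome 9, LOC_Os09g36080 had 30.4 and 6.36 FPKM in shoots and lies in an array with LOC_Os09g35940 and LOC_Os09g36070, the last with 1.03 and 0.305 FPKM. In the other array of this chromosome, LOC_Os09g26960 had 125 and 60.2 FPKM in shoots, LOC_Os09g26980 13.7 and 5.92 FPKM, and LOC_Os09g26940 was listed in culms only, with 2.93 FPKM for the wild type and 7.76 for mir156defghi. On chromosome 3 (2115173 to 2225205), LOC_Os03g04530, LOC_Os03g04660 and LOC_Os03g04680 were higher in shoots, the last with 18.4 and 75.9 FPKM, while LOC_Os03g04650 was lower, with 41.1 and 18.4 FPKM. In mir156defghi culms LOC_Os03g04680 was lower, with 7.38 and 3.07 FPKM. An array of 6 genes on chromosome 7 (19985711 to 20081621) had a median log2 ratio of 0.72 in shoots, with 1 gene higher and 0 lower.

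**Figure D5:**
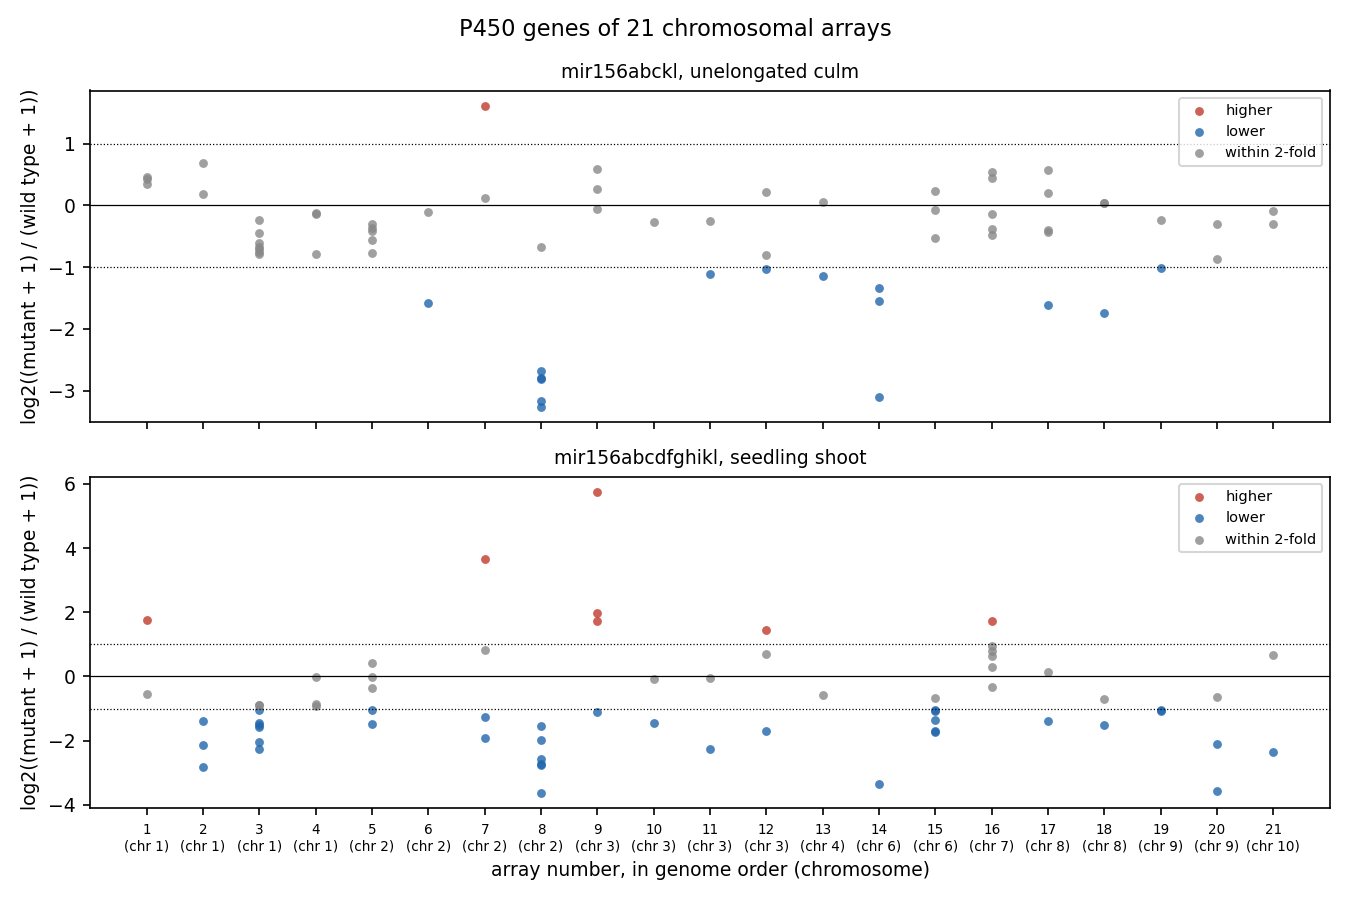
Log2 of (mutant + 1) over (wild type + 1) for the P450 genes of 21 chromosomal arrays (horizontal axis, numbered along the genome), in mir156abckl culms (top) and mir156abcdfghikl shoots (bottom), 1 point per gene with at least 1 FPKM in either genotype, with dotted lines at 2-fold. Array 8 on chromosome 2, beside the terpene synthase genes, lies low in both panels, and array 9 on chromosome 3 holds 3 of the higher genes in shoots.

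Genes that act before, with or after P450 enzymes were counted by their descriptions. Glutathione S-transferases conjugate oxidised compounds to glutathione, and 33 of 63 were lower and 8 higher in mutant shoots (median -1.07). In mir156abckl culms 13 of 65 were lower (20%) and 6 higher (9.23%). In mir156defghi culms 7 of 65 were lower (10.8%) and 6 higher (9.23%), and in embryos 2 of 40 were lower (5%) and 0 higher. The shares of all genes lower in these 3 comparisons were 4.76%, 3.63% and 1.6%, and the shares higher were 3.36%, 2.8% and 2.14%. UDP-glucosyl transferases, which attach sugars, had 23 of 50 lower and 3 higher in shoots (median -0.75). Lower were 4 of 46 in mir156abckl culms (8.70%), 4 of 45 in mir156defghi culms (8.89%) and 1 of 33 in embryos (3.03%). Both classes were, like the P450 genes, lower in shoots more often than the 19.7% of all genes. Terpene synthases had 13 of 20 lower in shoots (65%) and 9 of 18 in mir156abckl culms (50%), with medians of -1.89 and -1.24. In mir156defghi culms 5 of 24 were lower (20.8%) and 7 higher (29.2%), and only 1 was listed in embryos. The terpene synthase list includes the synthase genes named above beside P450 genes, so its counts are not separate from those values. Reductases and cytochrome b5 deliver electrons to P450 enzymes. All 4 genes described as NADPH or P450 reductase stayed within 2-fold in every comparison. Of 15 cytochrome b5 genes, 2 (13.3%) were lower and 2 (13.3%) higher in shoots, under the 19.7% and 22.6% of all genes. In mir156abckl culms 1 of 15 was lower (6.67%), in embryos 1 of 14 was higher (7.14%), and 0 passed 2-fold in mir156defghi culms. Their log2 ratios reached 3.23 in shoots, for LOC_Os09g16920 (7.94 and 82.8 FPKM), and -2.23 in mir156abckl culms, for LOC_Os02g43360 (59.8 and 11.98 FPKM). These were chosen after their values were seen.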

How the data were processed

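Messenger RNA of 7 groups was sequenced, with 3 biological repeats each per the methods. The authors built TruSeq Stranded mRNA libraries, aligned filtered reads to TIGR release 7 with Hisat2 (version not given in the sources used here) and computed FPKM with Cufflinks 2.2.1, per the labels. The deposited tables hold 1 FPKM value per genotype and gene over all repeats. They also hold the authors' log2 ratio, p-value, q-value and direction of change, which were not used. Whether counting used strand is not given in the sources used here. The files used here hold no counts, so depth is unknown and no error or test could be computed.

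FPKM values were analysed with Python 3.11.15, pandas 2.3.3 and numpy 2.4.6, and plots were drawn with matplotlib 3.10.9. Ratios were log2((mutant + 1)/(wild type + 1)) for genes with at least 1 FPKM in either genotype, with a limit of 2-fold. The counting step was tested on simulated data, where it recovered 200 of 200 changed genes in each of the 4 comparisons, with 0 false calls among 23581, 23498, 21505 and 23283 genes. This checks the counting only. Arrays are at least 3 P450 genes with neighbours within 100 kb. Of the 246 genes, 7 overlap another listed gene, and similar neighbours can share reads.

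Named genes were those with the 5 highest or 5 lowest ratios past 2-fold with at least 10 FPKM, the 5 most abundant in each wild-type tissue, those past 2-fold in embryos and shoots or in 3 comparisons, families 51, 84, 86 and 97, genes near terpene synthases and arrays with most of their genes past 2-fold one way. LOC_Os01g72270 and the cytochrome b5 genes were named after their values were seen. The genes and lists were chosen with earlier results of these data known. The RefSeq gene table used here matched 0 of these gene IDs, so no sequence is printed. Alternatives were pseudocounts of 0.1 and 0, other filters, centring, a 4-fold limit, entries of 1 gene only, and genes outside arrays.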

Additional observations from a re-analysis of the deposited data

Results flagged for a closer look

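LOC_Os02g09400 was past 2-fold in opposite directions in the tissues of mir156abcdfghikl. It had 0.795 FPKM in wild-type and 3.07 in mutant embryos (log2 1.18), and 20.3 FPKM in wild-type and 9.35 in mutant shoots (log2 -1.04), so that the log2 ratio in shoots minus that in embryos was -2.22. The difference was not tested, since each group has 1 value, and the mutant embryos and shoots carry different codes in the labels, so tissue and code cannot be told apart. Both ratios lie close to the 2-fold limit. The gene was weak in embryos and abundant in wild-type culms (45.1 FPKM).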

How the results depend on the processing

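The counts depended on how weakly expressed genes were treated, while the median P450 ratio stayed below 0 in every comparison under every alternative. With a pseudocount of 0.1, mir156defghi culms had 46 genes lower and 14 higher, and embryos 14 lower and 11 higher. With no pseudocount these were 49 and 14 in mir156defghi culms, and 14 and 12 in embryos. With at least 1 FPKM required in both genotypes, shoots had 47 lower and 10 higher, and mir156abckl culms 2 higher. With a limit of 4-fold, mir156abckl culms had 16 lower and 1 higher, mir156defghi culms 4 and 1, embryos 3 and 0, and shoots 29 and 7. Outside arrays, where fewer genes are counted, the genes lower were 24 in mir156abckl culms, 19 in mir156defghi culms, 3 in embryos and 42 in shoots, those higher 1 in embryos and 9 in shoots, and the embryo median was -0.0075. At 4-fold, 17.0% of the P450 genes and 6.92% of all genes were lower in shoots, and 8.65% and 0.933% in mir156abckl culms. In embryos, with a pseudocount of 0.1, 13.2% of the P450 genes and 2.78% of all genes were lower, and 10.4% and 4.45% higher. With no filter, with centring, or with entries of 1 gene only, every count stayed within 1.5 times. Among the named genes, 15 values within 2-fold passed it with a pseudocount of 0.1 and 15 with none. After centring, 2 passed it and 1 no longer did. No value past 2-fold changed sign under these 3 settings. No paired analysis was possible because the columns hold 1 value per genotype. No repeat could be left out for the same reason, and the depth of each library is unknown.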

Other observations

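The genes lower in mir156abckl culms and in shoots come from different genotypes, tissues and wild-type controls. They shared 22 P450 genes, which are 56.4% of the 39 lower in mir156abckl culms and 28.2% of the 78 lower in shoots. Among the 140 P450 genes compared in both tables, 22 of the 30 lower in mir156abckl culms (73.3%) were lower in shoots, beside 42.9% of the 140. Over all genes compared in both, the same shares were 67.0% and 17.9%, so the sharing was not particular to P450 genes. Mutant mir156defghi culms shared 6 lower P450 genes with shoots, which are 20% of the 30 and 7.69% of the 78. These are 6 of 19 among the 144 compared in both (31.6%), beside 42.4% of the 144, while over all genes the shares were 55.9% and 18.1%. LOC_Os09g23820, described as a family 72 P450, was lower in both culm comparisons and in shoots, with 4.37, 1.51 and 0.965 FPKM in wild-type, mir156abckl and mir156defghi culms, and 1.41 and 0.0194 FPKM in wild-type and mutant shoots.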
